A study of Mus musculus with 8 samples.

Results

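The 10 genes described here mark the sebaceous gland, the lipid-secreting appendage of the hair follicle: Awat2, Scd1, Scd3, Elovl3, Pparg, Cidea, Mc5r, Far2, Soat1 and Mgst1. They were chosen by name, with earlier results of these data known. All 10 were found among the 21690 genes of the expression table after its identifiers were matched to symbols. Their values were read in epidermis from the back skin of mouse pups at postnatal day 5, in 4 experimental and 4 control libraries that the labels call biological replicates. Experimental pups carried the transgenes K5rTA and tetOCre together with Esrp1flox/flox and Esrp2-/-, and control pups carried Esrp1flox/flox and Esrp2-/- alone. Dams of both groups ate high doxycycline chow from embryonic day 17. ESRP1 and ESRP2 are epithelial RNA-binding proteins that steer alternative splicing. Both groups lacked Esrp2 by genotype, so the groups differ in the keratin 5-driven deletion of Esrp1 and also in carrying the transgenes. No control with the transgenes and intact Esrp1 was used here.

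Sebocytes arise from progenitors at the gland's edge, fill with lipid droplets as they move inward and burst to release sebum. PPAR-gamma, the nuclear receptor encoded by Pparg, drives their differentiation. Mouse sebum is rich in wax esters, in triglycerides and in sterol esters. Its fatty acids are desaturated, elongated, reduced to fatty alcohols and joined into esters by enzymes that most of these genes encode. In a bulk epidermal sample, fewer sebocytes and less of a transcript per sebocyte cannot be told apart.

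Levels are in TPM, a share of transcripts corrected for length. Values of 1 TPM or less were listed at 0, so a 0 is a level at or under that floor. TPM keeps no depth, and the depth of each library was therefore unknown. Esrp1 itself fell to 64.2 ± 10.7 TPM in experimental libraries, against 140.3 ± 14.6 TPM in control libraries (SD, n = 4 each; limma adjusted p = 0.0112). Esrp2 stood at 4.98, 3.25, 5.28 and 4.22 TPM in experimental libraries and at 3.07, 0, 2.14 and 3.31 TPM in control libraries. Mitochondrially encoded genes took 18.2% and 17.5% of the listed TPM in experimental libraries 2 and 4, and 10.6% to 12.6% in the other 6 libraries. The control libraries differed widely among themselves on several marker lists, and this touches most results below. The labels give no litter, batch or dissection.

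Every one of the 10 genes had a lower mean log2 level in experimental epidermis, and 1 of them, the elongase gene Elovl3, fell past the threshold. Changes were fitted with limma on log2(TPM + 1) over 10682 genes, and the threshold was a Benjamini-Hochberg adjusted p under 0.05. At that threshold 1.54% of all genes tested were lower and 0.917% were higher. A log2 change below 0 was found for 74.5% of all genes tested. The median log2 change was -1.32 over the 10 genes and -0.18 over all genes. Groups did not overlap for 3 of the 10, Far2, Awat2 and Elovl3, each lower in experimental libraries, against 9.94% of all genes tested. An unadjusted p under 0.05 was reached by 5 of the 10, against 13.4% of genes tested that reached it in the lower direction.

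**Figure D1:**
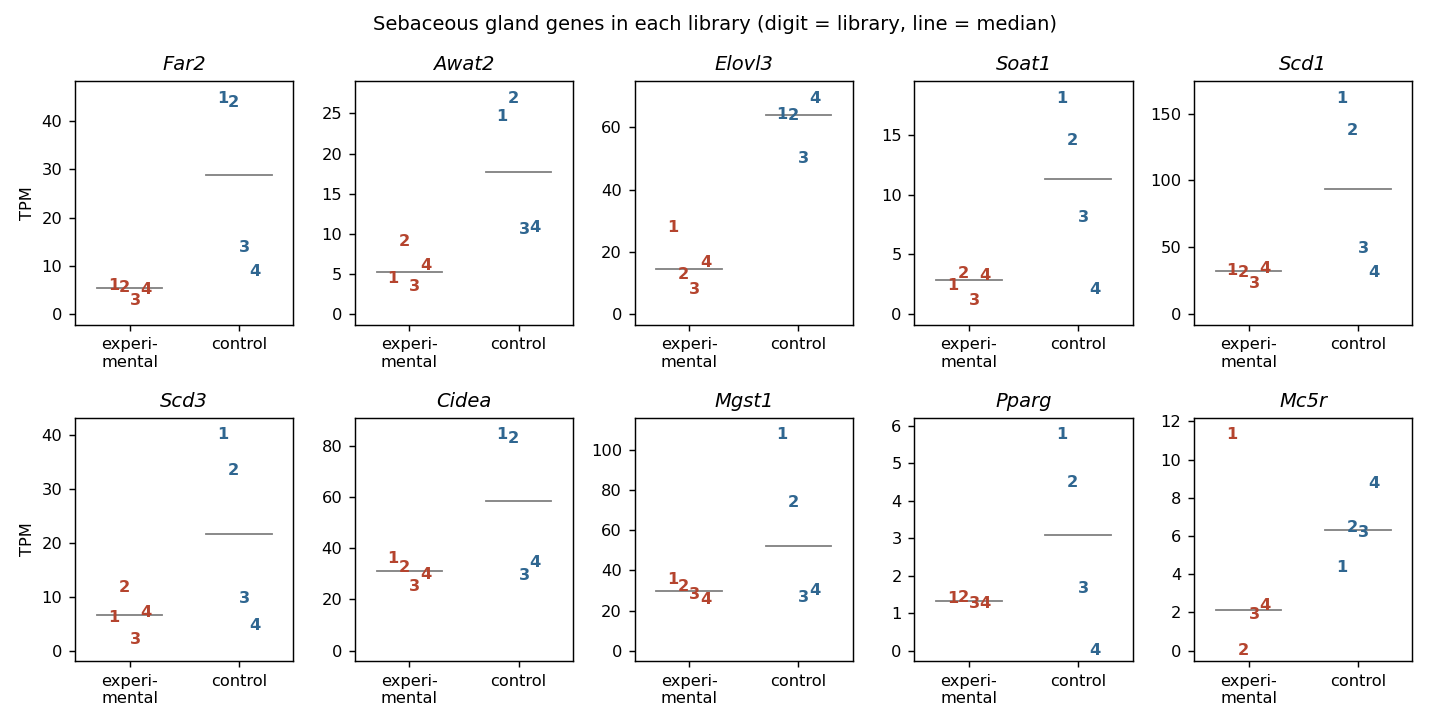
TPM of each sebaceous gene (vertical axes, linear, own scale per gene) in experimental (left, red) and control (right, blue) libraries; each digit is 1 library and each line a group median. In Far2, Awat2 and Elovl3 no experimental library reaches a control, and in 8 genes control libraries 1 and 2 lie above control libraries 3 and 4.

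The enzymes that shape sebum fatty acids come first. Elovl3 (ENSMUSG00000038754.5; chromosome 19, 46131897 to 46135694, plus strand, GRCm38) encodes an elongase of long saturated and monounsaturated fatty acids that is known from sebaceous gland and hair follicle. It stood at 27.7, 12.7, 7.82 and 16.5 TPM in experimental libraries and at 64.1, 63.8, 49.8 and 69.3 TPM in control libraries. The groups were far apart, and the controls were close to each other, within 1.39-fold. The means were 16.2 ± 8.45 and 61.8 ± 8.36 TPM in experimental and control libraries (SD, n = 4 each). The log2 change was -1.99, with SE 0.31 and limma adjusted p = 0.0116. The two-sided exact permutation p was 0.0286, and groups of 4 cannot give a smaller one.

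Scd1 and Scd3 encode stearoyl-CoA desaturases, which put the first double bond into saturated fatty acids; Scd3 is known for its restriction to sebocytes in mouse skin. Scd1 (ENSMUSG00000037071.3; chromosome 19, 44394455 to 44407879, minus strand) stood at 32.7, 31.2, 22.6 and 34.3 TPM in experimental libraries and at 161.5, 137.6, 49.3 and 31.4 TPM in control libraries. Control libraries 1 and 2 were far above every experimental value, whereas control library 4 lay inside the experimental range. The log2 change of -1.33 (SE 0.46) did not pass (limma adjusted p = 0.173). Scd3 (ENSMUSG00000025202.8; chromosome 19, 44203269 to 44244016, plus strand) stood at 6.22, 11.8, 2.02 and 6.99 TPM in experimental libraries and at 40.0, 33.5, 9.70 and 4.6 TPM in control libraries. Again the first pair of controls stood high and the other pair within the experimental range, and the change did not pass (log2 change -1.31, SE 0.64, limma adjusted p = 0.331). The coding sequences of Scd1 and Scd3 are 90.4% identical, and 1.82% of the 100-base windows of the Scd1 transcript occur unchanged in that of Scd3, so how reads were divided between them is slightly uncertain. Scd2, another desaturase gene, with wide expression, had the same controls highest but was not lower in experimental libraries. It stood at 96.0, 86.5, 131 and 118 TPM in experimental libraries and at 95.9, 81.5, 58.6 and 76.3 TPM in control libraries (log2 change 0.47, limma adjusted p = 0.279).

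The next step makes fatty alcohols and esters. Far2 (ENSMUSG00000030303.15; chromosome 6, 148047259 to 148182758, plus strand) encodes a peroxisomal reductase that turns fatty acyl-CoA into the fatty alcohols of wax. It stood at 5.89, 5.54, 2.69 and 5.04 TPM in experimental libraries and at 44.8, 43.9, 13.8 and 8.85 TPM in control libraries. No experimental library reached a control, although the controls themselves spanned 5.06-fold. Far2 had the most negative log2 change of the 10 genes, -2.06 (SE 0.48), with mean TPM 5.81-fold higher in controls, and it missed the threshold narrowly (limma adjusted p = 0.0566; exact permutation p = 0.0286). Far1, its relative with wide expression, averaged 6.93 ± 1.79 and 13.1 ± 5.63 TPM in experimental and control libraries (SD, n = 4 each; limma adjusted p = 0.223).

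Awat2 (ENSMUSG00000031220.14; chromosome X, 100402221 to 100442717, minus strand) encodes a wax synthase that joins fatty alcohols to acyl-CoA. It stood at 4.41, 9.03, 3.39 and 6.09 TPM in experimental libraries and at 24.6, 26.9, 10.5 and 10.8 TPM in control libraries. The groups did not overlap, with experimental library 2 close under control library 3 (log2 change -1.46, SE 0.36, limma adjusted p = 0.0649; exact permutation p = 0.0286). Soat1 (ENSMUSG00000026600.12; chromosome 1, 156424525 to 156474331, minus strand) encodes the acyltransferase that esterifies cholesterol. It stood at 2.43, 3.44, 1.1 and 3.22 TPM in experimental libraries and at 18.1, 14.6, 8.09 and 2.08 TPM in control libraries. The first 3 controls lay above all experimental libraries and control library 4 among them (log2 change -1.49, SE 0.51, limma adjusted p = 0.166). Soat2, the liver and gut form, was listed at 0 in 7 libraries and at 1.18 TPM in experimental library 4.

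Cidea (ENSMUSG00000024526.9; chromosome 18, 67343604 to 67367785, plus strand) encodes a lipid droplet protein through which small droplets fuse into larger ones. It stood at 35.8, 32.5, 24.9 and 29.8 TPM in experimental libraries and at 84.2, 82.8, 29.2 and 34.4 TPM in control libraries. Control libraries 3 and 4 lay inside the experimental range (log2 change over all libraries -0.74, SE 0.34, limma adjusted p = 0.312). Mgst1 (ENSMUSG00000008540.11; chromosome 6, 138140316 to 138156755, plus strand), which encodes a microsomal glutathione transferase and is an abundant marker of mouse sebocytes, gave nearly the same picture. It stood at 35.6, 31.9, 27.9 and 25.7 TPM in experimental libraries and at 107, 73.8, 26.6 and 30.1 TPM in control libraries (log2 change -0.73, SE 0.40, limma adjusted p = 0.389). Of its 5 tested relatives 1 fell and 1 rose, against 1.54% and 0.917% of all genes tested. Mgst3 fell to 37.8 ± 7.46 TPM in experimental libraries, against 74.0 ± 4.01 TPM in control libraries (limma adjusted p = 0.0189). Ptges, which encodes the microsomal prostaglandin E synthase, rose to 39.1 ± 4.06 TPM, against 21.7 ± 1.67 TPM (SD, n = 4 each, limma adjusted p = 0.0226). With median centring 2 of the 5 were higher and none was lower. Centring called 385 of all 10682 genes tested, 102 of them lower, against 263 in the main fit.

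Pparg and Mc5r stand for the control of the gland. Pparg (ENSMUSG00000000440.12; chromosome 6, 115360951 to 115490399, plus strand) stood at 1.38, 1.42, 1.25 and 1.25 TPM in experimental libraries and at 5.75, 4.49, 1.66 and 0 TPM in control libraries. It was near the floor in every experimental library and at the floor in control library 4, where a fold change is understated (log2 change -0.69, SE 0.35, limma adjusted p = 0.344). Mc5r (ENSMUSG00000007480.4; chromosome 18, 68337596 to 68342446, plus strand) encodes the melanocortin receptor through which sebum secretion is stimulated in mice. It stood at 11.3, 0, 1.9 and 2.35 TPM in experimental libraries and at 4.33, 6.46, 6.17 and 8.77 TPM in control libraries. Experimental library 1 was the highest of all 8 and the other experimental libraries were under every control (log2 change -0.89, SE 0.48, limma adjusted p = 0.380). Among the other melanocortin receptors and their ligands, Agrp alone was high enough to test, at 13.5 ± 2.93 and 8.45 ± 0.70 TPM in experimental and control libraries (SD, n = 4 each; limma adjusted p = 0.12).

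On the TPM scale the 10 genes covered a wide range of abundance. In experimental libraries Cidea, Mgst1 and Scd1 shared the top with means between 30.2 and 30.8 TPM, Elovl3 followed at 16.2 TPM, then Scd3, Awat2 and Far2 at 6.75, 5.73 and 4.79 TPM, Soat1 at 2.55 TPM and Pparg at 1.32 TPM. In control libraries Scd1 led at 94.9 ± 64.2 TPM, ahead of Elovl3, Mgst1 and Cidea between 57.6 and 61.8 TPM, then Far2, Scd3 and Awat2 between 18.2 and 27.8 TPM, Soat1 at 10.7 TPM and Mc5r at 6.43 TPM (SD, n = 4). Neighbours in the control order differed by less than the larger of their SDs. In the experimental order that held among the top 3 and among Scd3, Awat2 and Far2, while Elovl3, Soat1 and Pparg stood apart from their neighbours by more.

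Pparg was the only one of the 10 genes in the authors' deposited MAJIQ table, and it was listed for a switch of its first exon. MAJIQ combines the libraries of a group and gives PSI, here the share of junction reads into the next exon, which starts at 115383679, that come from each first exon. In the authors' deposited table the upstream first exon (115360951 to 115361370, 420 bases, transcript Pparg-202) had a PSI of 0.425 in experimental and 0.070 in control epidermis. The downstream first exon, which ends 1047 bases further along at 115362417 (126 bases in transcript Pparg-204), had a PSI of 0.474 in experimental and 0.815 in control epidermis. The expected differences were 0.350 and -0.331, with posterior probabilities of 0.999 and 0.993 that the absolute difference was at least 0.15, per the authors' deposited table. A remainder of 0.101 in experimental and 0.115 in control epidermis went to neither of these first exons, and what it came from is not given. Both first exons lie ahead of the annotated coding start of Pparg-202 and Pparg-204, which is the same base, 115439848. The table gives no reads per junction, and Pparg was at 1.42 TPM or less in the experimental libraries and spread from 0 to 5.75 TPM in the controls, so a library's own share is unknown. Among the 501 events that the authors' deposited table holds, 82.0% reached a posterior probability of 0.95, so the table is itself mostly a list of changed events.

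**Figure D2:**
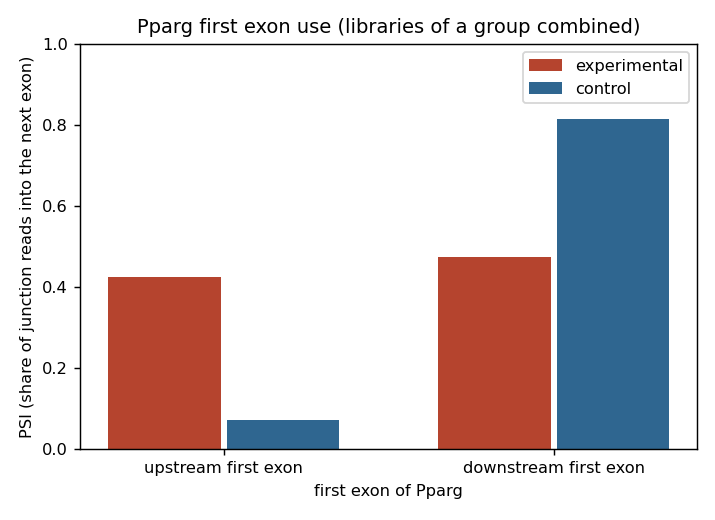
PSI (vertical axis, 0 to 1) of the upstream and downstream first exons of Pparg in experimental (red) and control (blue) epidermis, as the authors' deposited MAJIQ table gives them for combined libraries, hence without error bars. The upstream exon stands at 0.425 and 0.070 and the downstream exon at 0.474 and 0.815 in experimental and control epidermis.

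The promoter windows around a RefSeq start of each of these 2 first exons are shown. Each is the RefSeq window (GRCm38.p6, plus strand) from 250 bases before to 50 bases after a RefSeq start, which lies inside the GENCODE exon, at chr6:115360894-115361193 for the upstream and chr6:115362099-115362398 for the downstream exon. Capitals mark each AGGTCA, the half-site bound by many nuclear receptors, and each match to the core promoter motif TATAAA, on either strand. The core promoter motif in the downstream window is on the minus strand and so reads there as its reverse complement. Matches of the 2 motifs do not overlap. GENCODE starts the exon of Pparg-202 at 115360951 and that of Pparg-204 at 115362292. All marked stretches therefore lie inside these exons as GENCODE draws them. Those in the downstream window lie ahead of the first exon of Pparg-206, which starts at 115362349.
Pparg upstream promoter: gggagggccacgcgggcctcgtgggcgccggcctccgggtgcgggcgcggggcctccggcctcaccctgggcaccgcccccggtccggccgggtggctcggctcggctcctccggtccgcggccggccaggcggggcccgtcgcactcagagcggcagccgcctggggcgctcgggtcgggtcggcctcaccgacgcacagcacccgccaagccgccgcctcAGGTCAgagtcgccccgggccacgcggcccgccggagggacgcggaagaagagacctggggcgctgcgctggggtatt
Pparg downstream promoter: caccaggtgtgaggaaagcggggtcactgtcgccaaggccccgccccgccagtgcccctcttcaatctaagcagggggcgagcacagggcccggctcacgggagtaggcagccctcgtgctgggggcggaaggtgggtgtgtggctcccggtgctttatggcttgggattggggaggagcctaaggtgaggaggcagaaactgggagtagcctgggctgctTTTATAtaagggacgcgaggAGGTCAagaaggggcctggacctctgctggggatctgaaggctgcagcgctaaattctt
The upstream window is 80.3% G and C and the downstream window 62.7%, against a median of 52.7% over 32851 promoter windows. The downstream window holds a TATAAA 29 to 24 bases before the RefSeq start, and the upstream window holds none. Of all windows 13.6% hold one. Both Pparg windows shown hold 1 AGGTCA, 28 to 23 bases before the upstream RefSeq start and 9 to 4 bases before the downstream one. Of all windows 16.3% hold one. A further Pparg window, at chr6:115421816-115422115 and not shown, holds neither AGGTCA nor TATAAA. Windows were found for 6 of the 10 genes (10 windows, for Awat2, Far2, Mgst1, Pparg, Scd3 and Soat1). None of the 10 windows held the direct repeat that PPAR and RXR dimers bind, 2 copies of AGGNCA set 1 base apart (0.381% of all windows, either strand), or TCACNCCAC, a sterol response element (1.24%). A match is only a match of letters in these windows.

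Across the 8 libraries 8 of the 10 genes went up and down together, and Elovl3 and Mc5r did not follow them closely. Over the 28 pairs among Awat2, Scd1, Scd3, Pparg, Cidea, Far2, Soat1 and Mgst1 the Pearson r of log2(TPM + 1) was between 0.80 and 0.97. Elovl3 had r from 0.53 to 0.81 with these 8, and Mc5r had r from 0.10 to 0.37. The points are 8 libraries in 2 groups and share both the group difference and the differences among controls, so these values are a description. With the mean of the other 9 members Elovl3 had r = 0.75 and Mc5r 0.29, where the other 8 had r between 0.88 and 0.99. With the mean of a hair follicle list of 21 genes Elovl3 had r = 0.78 and Mc5r 0.82, where the other 8 had r between 0.01 and 0.37. Elovl3 and Mc5r were also the only members for which control library 4 was the highest control. The split into 8 and 2 was made after the values were seen.

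**Figure D3:**
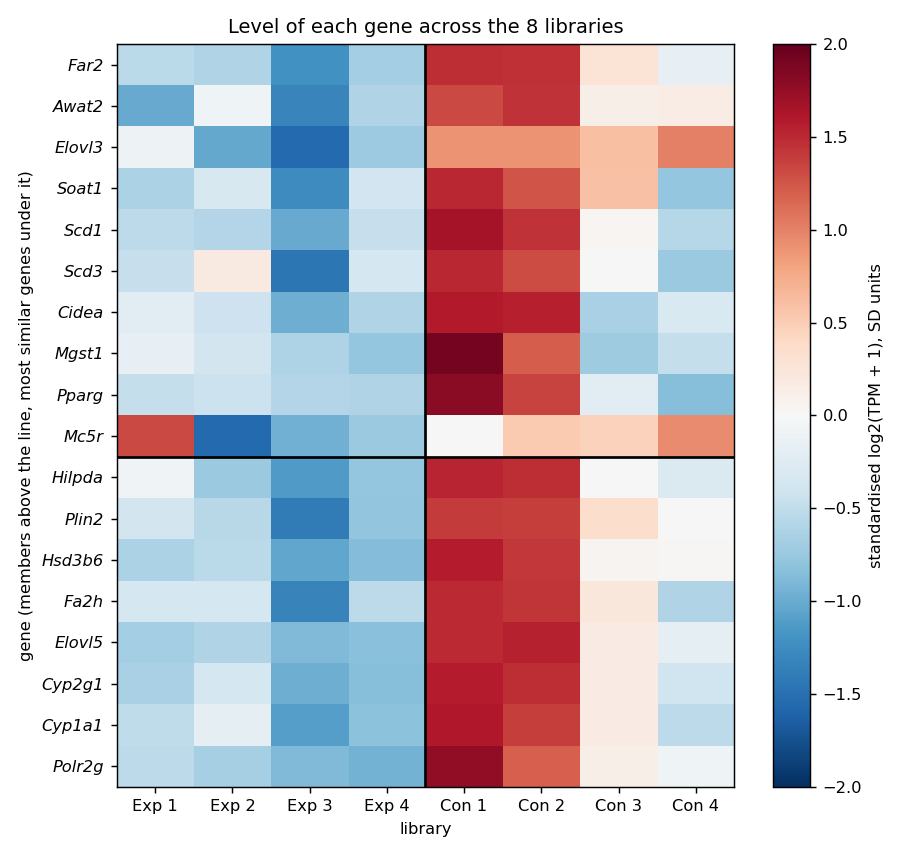
Standardised log2(TPM + 1) (colour, in SD units of each gene) of the 10 sebaceous genes (above the line) and the 8 genes most like their mean (under it) in the 4 experimental and 4 control libraries. Control libraries 1 and 2 are red in all rows but Mc5r, whose control library 1 is near its mean.

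The spread among controls had a plain form. Control libraries 1 and 2 both lay above control libraries 3 and 4 for 8 of the 10 genes, all but Elovl3 and Mc5r. How many of all genes tested had this order was not counted. It is not particular to the sebaceous genes. Far1, Scd2, Fasn, Lrig1 and Krt79 had the same order, and Fabp4 and Lpin3 had the reverse. In summed TPM over the 10 genes, experimental libraries stood at 163, 139.5, 95.6 and 131 and control libraries at 555, 488, 205 and 200.3. The mean of control libraries 1 and 2 over that of 3 and 4 was 5.14-fold for Scd3, 3.91-fold for Far2, 3.71-fold for Scd1, 3.22-fold for Soat1, 3.20-fold for Mgst1, 2.63-fold for Cidea, 2.42-fold for Awat2 and 1.07-fold for Elovl3. Control libraries 1 and 2 were each above every experimental library for 9 of the 10 genes, control library 3 for 6 and control library 4 for 3. These counts, too, were not made over all genes. The SD of log2 levels was larger in control than in experimental libraries for 8 of the 10, with medians of 0.45 in experimental and 0.90 in control libraries. Over all genes tested those medians were 0.23 and 0.32, and 64.7% of genes had the larger SD in controls. Experimental libraries were more alike, and experimental library 3 was the lowest of its group in 7 of the 10 genes.

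The column names of the expression table carry the numbers 18, 21, 22 and 24 for the experimental libraries and 11, 14, 23 and 25 for the control libraries. Control libraries 1 and 2, the high ones, thus have numbers below all others, while control libraries 3 and 4 have numbers among and next to those of the experimental libraries. No label says what the number is. The same 2 controls were also highest on lists of other epidermal compartments. The mean log2 level of 13 basal keratinocyte genes was 4.37, 4.38, 5.17 and 4.65 in experimental libraries and 6.21, 5.92, 5.13 and 3.63 in control libraries, and that of 28 cell cycle genes was 2.29, 2.42, 2.36 and 2.20 in experimental libraries and 3.95, 3.37, 2.03 and 1.41 in control libraries. The hair follicle list ran the other way among controls, at 7.42, 5.15, 6.50 and 7.03 in experimental libraries and 7.28, 7.89, 8.58 and 9.29 in control libraries. None of the 21 hair follicle genes and none of 27 tested cell cycle genes passed, with median log2 changes of -1.65 and -0.40, against -0.18 over all genes. Of 13 basal genes 1 fell, against 1.54% of all genes tested. This was the keratin gene Krt15, at 108 ± 49.9 and 877 ± 497 TPM in experimental and control libraries (SD, n = 4 each, limma adjusted p = 0.0361). It did not pass with centring or quantile normalization. The authors' deposited table lists 11 of the hair follicle genes, among them Dsg4, a desmosomal cadherin gene, at a log2 fold change of -2.77 (adjusted p = 0.00355). That table holds 748 genes, all with negative fold changes and adjusted p under 0.05, so the direction of those 11 is given by its contents. What part the makeup of these samples had in the sebaceous values was not tested.

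**Figure D4:**
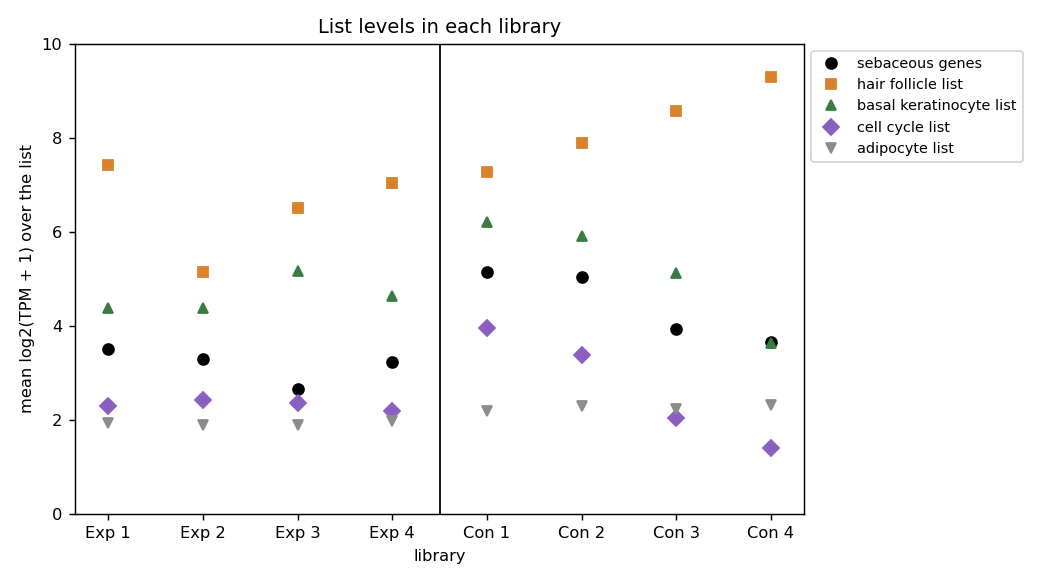
Mean log2(TPM + 1) over each list (vertical axis) in the 4 experimental and 4 control libraries (horizontal axis); each point is 1 list in 1 library. Sebaceous, basal and cell cycle lists are highest in control libraries 1 and 2, and the hair follicle list is highest in control libraries 3 and 4.

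The fit was repeated without either pair of controls, a choice made after seeing the data. Without control libraries 3 and 4, 9 of the 10 genes fell, all but Mc5r, with a median log2 change of -2.06. In that fit 22% of all genes tested were lower past the threshold. Far2 had a log2 change of -3.01 there (limma adjusted p = 0.000903) and Scd1 one of -2.28 (limma adjusted p = 0.000763). Without control libraries 1 and 2, 1 of the 10 fell, Elovl3, and 3.24% of all genes tested did. The median log2 change was then -0.51, Pparg and Mgst1 stood at 0.01 and 0.08 on the log2 scale, and Cidea at -0.05. Far2 and Awat2 kept log2 changes of -1.1 and -0.86 and did not pass (limma adjusted p = 0.0704 and 0.15).

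Elovl3 was the member least moved by the choice of controls. Its log2 change was -1.93 without control libraries 1 and 2 (limma adjusted p = 0.0352) and -2.05 without control libraries 3 and 4 (limma adjusted p = 0.0109). It was -1.97 without experimental libraries 2 and 4, the libraries with the higher mitochondrial share, and did not pass there (limma adjusted p = 0.201); that fit called 1 lower gene in all. Leaving out control library 4 alone took the number of members that fell to 5, with Far2, Awat2, Scd1 and Soat1 beside Elovl3, and 3.91% of all genes tested were lower in that fit. Without experimental library 1 Mc5r fell beside Elovl3 (log2 change -1.43, limma adjusted p = 0.0392). The share of all genes tested that was lower was 0.819%, 0.641%, 0.439% and 0.468% without experimental libraries 1 to 4, and 1.56%, 0.612% and 0.515% without control libraries 1 to 3. It was 1.5% with no pseudocount or no variance trend, 1.51% and 1.54% with pseudocounts of 0.1 and 0.5 TPM, 1.25% and 1.53% with no filter and with a filter at 5 TPM, 1.1% with quantile normalization and 0.955% with median centring, each with Elovl3 as the 1 member that fell. With library weights it was 34.4%, and 9 members fell. Without experimental libraries 2 and 4 it was 0.00929%.

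**Figure D5:**
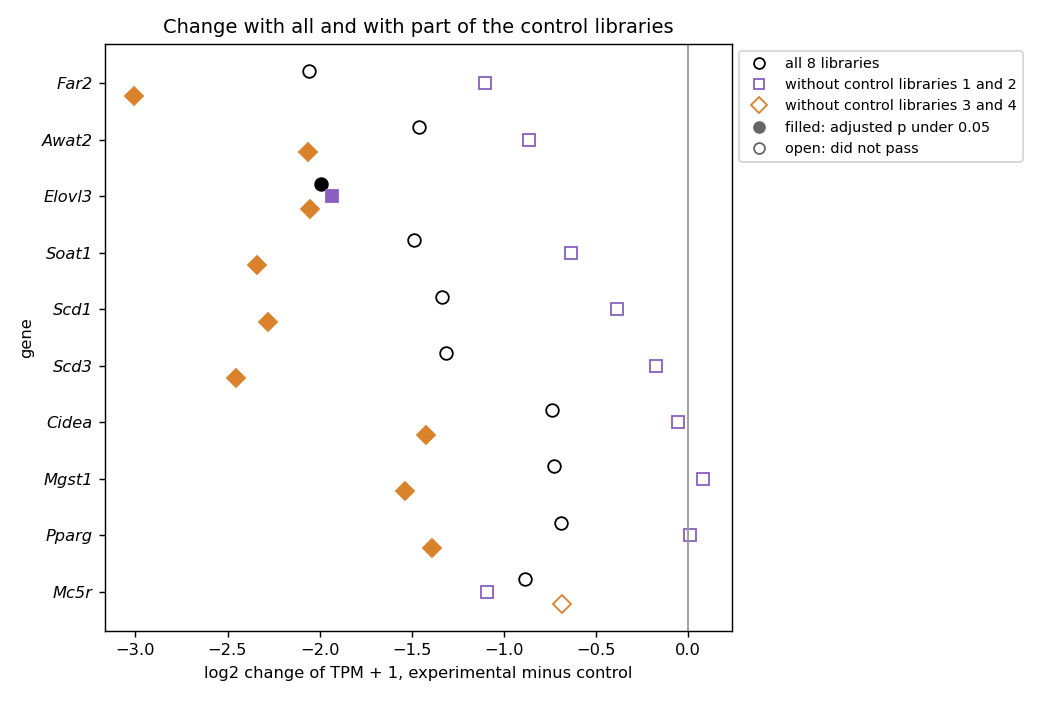
Log2 change of TPM + 1, experimental minus control (horizontal axis), for each gene with all 8 libraries (circles), without control libraries 1 and 2 (squares) and without control libraries 3 and 4 (diamonds); filled symbols passed an adjusted p of 0.05 in limma. Elovl3 stays near -2 in all 3 fits, and Pparg, Mgst1 and Cidea lie near 0 without control libraries 1 and 2.

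The authors' deposited table of differential expression, made with DESeq2 per the series' design text, lists 5 of the 10 genes, all lower in experimental epidermis. In the authors' deposited table Far2 has a log2 fold change of -2.20 (SE 0.47, adjusted p = 0.000149), and Elovl3 one of -1.75 (SE 0.39, adjusted p = 0.000358). The authors' deposited table gives Awat2 -1.36 (SE 0.41, adjusted p = 0.0165), Scd1 -1.33 (SE 0.42, adjusted p = 0.0221) and Soat1 -1.73 (SE 0.54, adjusted p = 0.0222). The table holds 748 genes, all with negative fold changes and adjusted p under 0.05, so it cannot show which genes were tested without a call. Scd3, Pparg, Cidea, Mc5r and Mgst1 are not among its rows. Both analyses rest on the same libraries.

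Among 7238 other named genes with a mean of at least 5 TPM, the highest Pearson r with the mean standardised level of the 10 genes over 8 libraries was that of Hilpda (r = 0.991), which encodes an inhibitor of droplet lipolysis, followed by Plin2 (r = 0.985), which encodes a droplet coat protein. Plin2 fell to 30.6, 27.2, 15.5 and 23.2 TPM in experimental libraries, against 94.5, 93.6, 48.8 and 39.1 TPM in control libraries, with no overlap (log2 change -1.41, limma adjusted p = 0.0498). Hilpda stood at 6.78, 5.36, 4.65 and 5.28 TPM in experimental libraries and at 11.5, 11.4, 6.90 and 6.28 TPM in control libraries, and did not pass (limma adjusted p = 0.218). Next came Hsd3b6, a steroid dehydrogenase gene (r = 0.983), Fa2h, the fatty acid 2-hydroxylase gene (r = 0.980), and Elovl5, an elongase gene of polyunsaturated fatty acids (r = 0.978). Cyp2g1 and Cyp1a1, cytochrome P450 genes, and Polr2g, which encodes a subunit of RNA polymerase II, completed the 8 (r = 0.974 to 0.976). By Spearman rank correlation 5 of these 8 were again among the highest 8. Fa2h stood at 6.83, 6.86, 1.43 and 5.38 TPM in experimental libraries and at 71.2, 65.9, 14.8 and 4.83 TPM in control libraries. The 8 genes were picked by this correlation over the same libraries. The division of the controls and the lower experimental levels that they share with the members therefore follow from the choice.

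Among 24 tested genes of a wider sebocyte list, 4 fell and none rose, against 1.54% and 0.917% of all genes tested. The median log2 change was -0.48, against -0.18 over all genes. Besides Plin2 the 4 that fell were Ces4a, a carboxylesterase gene, at 7.77 ± 4.15 and 34.5 ± 14.4 TPM in experimental and control libraries, Pnpla5, a patatin-like lipase gene, at 3.01 ± 1.02 and 18.0 ± 10.7 TPM (SD, n = 4 each), and Hsd3b6. Hsd3b6 stood at 2.10, 2.44, 0 and 1.38 TPM in experimental libraries and at 33.6, 28.4, 5.57 and 5.38 TPM in control libraries (limma adjusted p = 0.0490). In control libraries Ces4a stood at 45.4, 48.1, 23.8 and 20.4 TPM and Pnpla5 at 28.7, 25.4, 11.7 and 6.24 TPM. All 4 genes thus had control libraries 1 and 2 above the other controls, as most members did. With median centring or with quantile normalization 2 of the 24 were lower, against 0.955% and 1.1% of all genes tested. With centring 1 was higher. Awat1, the other wax synthase of the list, did not pass, at 25.8, 28.3, 28.1 and 14.3 TPM in experimental libraries and 68.6, 70.7, 26.6 and 24.1 TPM in control libraries (limma adjusted p = 0.311). Fasn, the fatty acid synthase gene, stood at 15.3 ± 3.83 and 19.4 ± 4.49 TPM in experimental and control libraries (SD, n = 4 each; limma adjusted p = 0.488).

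Of 24 tested genes of fatty acid synthesis and desaturation 1 rose, 1 fell and 22 did not pass. Over all genes tested 0.917% rose and 1.54% fell, so a single call in a list this short says little about the list. Elovl1, an elongase of very long saturated fatty acids, rose to 1227 ± 157 TPM in experimental libraries, against 665 ± 66.8 TPM in control libraries (limma adjusted p = 0.0305). Acsl5, an acyl-CoA synthetase gene, fell to 75.3 ± 5.93 TPM, against 134.7 ± 18.7 TPM in control libraries (SD, n = 4 each; limma adjusted p = 0.0257). With median centring 3 of the 24 were higher and none was lower. Of all 10682 genes tested, 385 passed with centring and 386 with quantile normalization, 102 and 117 of them lower. Of 14 tested genes of wax, triglyceride and sterol ester synthesis 1 fell and none rose. This was Lpin3, a phosphatidate phosphatase gene, at 9.80 ± 2.51 and 37.9 ± 19.6 TPM in experimental and control libraries (SD, n = 4 each; limma adjusted p = 0.0350), and it did not pass with centring or quantile normalization. Like Elovl3 and Mc5r it was highest in control library 4, at 18.0, 25.4, 47.9 and 60.1 TPM in the control libraries. Of 11 tested lipid droplet genes Plin2 alone fell; with median centring none passed, and with quantile normalization 1 was higher and none lower.

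Transcription factors that govern lipid genes did not pass: none of 17 tested nuclear receptor and lipogenic regulators rose or fell, with a median log2 change of -0.18, against -0.18 over all genes; with centring or quantile normalization 1 was lower. Gata6, a factor of the upper follicle and gland duct, had the lowest p, at 2.78, 2.40, 2.55 and 3.51 TPM in experimental libraries and 5.96, 5.58, 4.63 and 4.32 TPM in control libraries (limma adjusted p = 0.0650). Its groups did not overlap, and the authors' deposited table lists it at a log2 fold change of -0.67 (adjusted p = 6.06e-06). Insig1, a brake on sterol-regulated transcription, averaged 33.6 ± 7.64 and 60.8 ± 28.4 TPM in experimental and control libraries (SD, n = 4 each; limma adjusted p = 0.218). Of 15 tested PPAR target genes 2 fell (1 with centring or quantile normalization), Plin2 among them, against 1.54% of all genes tested. Cd36, a fatty acid transporter gene, stood at 2.47, 4.52, 1.32 and 3.03 TPM in experimental libraries and at 11.1, 13.3, 4.23 and 4.86 TPM in control libraries (limma adjusted p = 0.123). Of 9 tested genes of the upper follicle and gland duct none passed; with centring or quantile normalization 1 was lower, Gata6. Lrig1, which marks stem cells there, averaged 13.0 ± 2.75 and 26.1 ± 9.49 TPM in experimental and control libraries (limma adjusted p = 0.113), and Krt79, a keratin of the duct, 1281 ± 278 and 1779 ± 408 TPM (SD, n = 4 each; limma adjusted p = 0.353). The authors' deposited table lists Lrig1 at a log2 fold change of -0.76 (adjusted p = 0.00984).

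Fat cells share Pparg, Scd1 and Cidea with the gland, and dermal fat lies close under the sampled tissue. Of 13 adipocyte genes 7 were listed at 0 in all 8 libraries, among them Adipoq, Lep, Cfd, Plin1 and Cidec. The summed TPM of the list ranged from 98.7 to 311 in experimental and from 149 to 1213 in control libraries, most of it Fabp4, which stood at 100.2 TPM in control library 1 and at 1129 TPM in control library 4, opposite to the order of the sebaceous genes. Adig, an adipocyte gene, stood at 2.12, 4.83, 1.36 and 2.03 TPM in experimental libraries and at 17.3, 16.1, 8.52 and 3.33 TPM in control libraries (limma adjusted p = 0.0883). Fibroblast, vessel and muscle genes summed to between 0 and 3.29 TPM in experimental and between 0 and 31.6 TPM in control libraries, with the highest sum in control library 1.

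Of the genes on the lipid lists, Mgll, Far1 and Insig2 were also in the authors' deposited MAJIQ table. In Mgll, the monoglyceride lipase gene, the junction that skips a cassette exon had a PSI of 0.938 in experimental and 0.253 in control epidermis in the authors' deposited table. In Far1 a mutually exclusive exon was joined with a PSI of 0.941 in experimental and 0.539 in control epidermis in the authors' deposited table. In Insig2, a regulator of sterol synthesis, the spliced form of an intron had a PSI of 0.317 in experimental and 0.672 in control epidermis in the authors' deposited table. Its retained form had a PSI of 0.383 in experimental and 0.147 in control epidermis, with a posterior probability of 0.866, per the authors' deposited table. The values of the spliced form are also listed there for an alternative last exon.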

How the data were processed

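Polyadenylation, strand and read depth of these libraries are not given in the sources used here; per the labels' protocols, RNA was purified with RNeasy kits and libraries were made with NEBNext Ultra. Per the submitters' processing notes the builds were mm10 and GRCm38, and the tools Salmon 0.14.0, STAR, DESeq and SAMtools 1.9; no roles are given.

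The deposited expression values are log2 of TPM by the authors, without batch correction per the file's name. Against the authors' deposited mean normalized count signal per kilobase (392 genes), reading the values as log2 TPM gave a count-to-TPM ratio in low genes 0.99 times that in high genes, and reading them as log2(TPM + 1) gave 1.43, so they were read as log2 TPM with a floor at 1 TPM. Of 21690 identifiers 21662 matched a symbol. The authors' deposited table of fold changes gives log2 values, a Wald score and p-values per the file headers, and the authors' deposited MAJIQ table gives PSI fractions, with scores for their difference and its posterior probability, per the file headers.

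TPM was set to at least 1 and log2(TPM + 1) was fitted with limma 3.58.1 (R 4.3.3) for genes with a mean of at least 1 TPM, with group as the only term, a variance trend and two-sided Benjamini-Hochberg adjusted p-values; changes of low genes come out too small on this scale. The design assumed linear TPM, and the logs were turned back first. Column names give groups but match no replicate number of the labels, so numbers 1 to 4 are names in table order, libraries were not paired, and nothing says the p-values measure more than the spread between these samples. Exact permutation tests used all 70 divisions into 4 and 4. The fit was tested on simulated data with independent noise per gene and the same SD in both groups. The larger and shared spread of the control libraries was not simulated. Other tools were Python 3.11.15, pandas 2.3.3, numpy 2.4.6, Biopython 1.88 and matplotlib 3.10.9. Annotation was GENCODE M21 (GRCm38).

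The 10 genes and all lists were chosen with earlier results of these data known. Named beyond them were, per list, up to 4 passing genes of lowest p or else the 2 of lowest p, and the 8 genes most correlated with the members' mean. Other genes named for contrast (Scd2, Far1, Soat2, Awat1, Fasn, Krt79, Fabp4, Mgll, Insig2, Dsg4 and adipocyte genes at 0) were chosen after their values were seen. A gene that this rule names is not reported here. Alternatives were 3 other pseudocounts, other filters, quantile normalization, median centring, no trend, library weights and leaving out libraries.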

Additional observations from a re-analysis of the deposited data

How the results depend on the processing

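Under pseudocounts of 0.1, 0.5 and 0 TPM, no filter or a filter at 5 TPM, quantile normalization, median centring and no variance trend, the number of members past the threshold was 1, Elovl3, each time. Leaving out 1 library each gave 1 to 5 members, a median log2 change from -1.71 to -1.01 and 85 to 578 genes in all past the threshold, against 263 with all libraries. Library weights, which gave control library 2 a weight of 7.43 and control library 4 one of 0.154, called 9 members at a median log2 change of -2.17 and 4423 genes in all; the cause was not tested. Dropping pairs of libraries, chosen after seeing the data, gave 1 member, a median of -0.51 and 544 genes without control libraries 1 and 2, where Pparg (0.012) and Mgst1 (0.083) turned to just above 0. It gave 9 members, a median of -2.06 and 2595 genes without control libraries 3 and 4, and 0 members (4 at an unadjusted limma p under 0.05; Elovl3 at -1.97) and 15 genes without experimental libraries 2 and 4, where 2 experimental and 4 control libraries remained. Elovl3 passed in 19 of 20 alternatives. Median centring moved the median gene by 0.21 on the log2 scale and left the median of the members at -1.11. No paired analysis was possible because the columns carry no replicate number of the labels. TPM hides depth, so how far counting error limits Pparg, Soat1 and Mc5r near the floor is unknown.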
